A study of Mus musculus with 384 samples.

Results

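The genes described here encode actin and the proteins that handle it in leukocytes. They are Actb and Actg1 (the 2 cytoplasmic actins), Tmsb4x (thymosin beta-4) and Pfn1 (profilin 1), which bind actin monomers, Cfl1 (cofilin 1) and Coro1a (coronin 1A), which act in filament turnover, Arpc1b, Arpc2 and Arpc3, subunits of the Arp2/3 complex, and Lcp1 (L-plastin), which bundles filaments. These 10 genes were chosen by symbol from the 23420 genes in the expression table, and all 10 were found. Each was followed in neutrophils divided by the level of their granule transcripts, by Mki67 and by Il1b, and in the remaining cells.

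RNA was sequenced from single cells sorted from the spinal cords of Optn KO mice after staining for CD45, CD11b and CX3CR1, with the full-length SmartSeq2 method. All 326 cells analysed carry the same genotype label, and no strain, age or treatment is given. Wild-type cells were not part of the data used, and the comparisons below are between cell classes, not genotypes. The labels assign 2 plates to replicate 1 (77 cells on each) and 2 plates to replicate 2 (85 and 87 cells), and 58 further labelled cells were not analysed here. The labels do not say that the replicates are separate mice, so n = 2 throughout and the spread between them may be technical.

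Although the series title names microglia, the cells carried neutrophil transcripts. S100a8 plus S100a9 reached at least 10000 TPM (a share of each cell's transcripts, corrected for gene length and scaled to a total of 1000000) in 286 cells, called neutrophils here, and stayed below it in 40, called other cells. The border fell in a gap, with the nearest cells at 4019 and 12512 TPM. All 286 neutrophils had at least 3 of 10 neutrophil markers above 0, but that list holds S100a8 and S100a9, which define the class. These genes took 14.7% and 14.1% of TPM in neutrophils of the 2 replicates. The marker count and the summed levels below were thus partly set by the rule. Of the 40 other cells, 28 had at least 3 of 8 monocyte markers above 0, and 36 had at least 3 neutrophil markers above 0, at a summed level of 2555 and 2287 TPM in the 2 replicates against 243531 and 239345 TPM in the neutrophils. No cell had 3 of the 10 microglia markers, and Sall1 and C1qc were listed at 0 in every cell. Optn was listed at 0 in all 326 cells, which allows a share of up to 0.920% of cells with a value above 0 (3 cells of the total, counting error only). Sequencing depth cannot be read from TPM, and the count of genes above 0 in a cell (median 1681, range 675 to 5707) stood in for it.

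Actin monomers join into filaments that push the cell membrane forward during crawling and phagocytosis, and neutrophils turn these filaments over very quickly. Profilin and thymosin beta-4 hold the monomer pool, the Arp2/3 complex starts branches on existing filaments, cofilin and coronin take old filaments apart, and L-plastin, the plastin of leukocytes, ties filaments into bundles. In neutrophils this machinery serves migration out of the blood, engulfment and degranulation.

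The proteins of Actb and Actg1 are nearly the same, and so are their coding sequences, which matters for assigning reads to one or the other. Both reading frames start in exon 2 of their genes. The first 90 coding bases are printed here, read 5′ to 3′ on the minus strand from GRCm38 with GENCODE annotation, at chr5:142905597-142905686 for Actb and chr11:120348002-120348091 for Actg1, with the 16 bases that differ between them in capitals.
Actb: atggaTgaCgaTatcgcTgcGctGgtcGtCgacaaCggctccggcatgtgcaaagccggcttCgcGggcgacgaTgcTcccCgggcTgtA
Actg1: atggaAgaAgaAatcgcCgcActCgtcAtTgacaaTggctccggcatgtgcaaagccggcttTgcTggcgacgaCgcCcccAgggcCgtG
Over the whole coding sequence of 1128 bases the genes were identical at 88.65% of positions. Of the 128 differing bases, 120 lay at the third position of a codon, and the longest stretch without a difference was 62 bases. A read that lies wholly inside such a stretch would fit both genes. How many reads did so, and whether this moved the split between Actb and Actg1, was not tested. Their untranslated ends were not compared here.

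Actb lies on chromosome 5 (142903115 to 142906754, minus strand) and Actg1 on chromosome 11 (120345690 to 120348542, minus strand) of GRCm38. Tmsb4x is on chromosome X (167207093 to 167209315, minus strand), Pfn1 on chromosome 11 (70651850 to 70654644, minus strand) and Coro1a on chromosome 7 (126699773 to 126707787, minus strand). On the plus strand lie Cfl1 on chromosome 19 (5490455 to 5495201), Arpc2 on chromosome 1 (74236084 to 74268209), Arpc1b and Arpc3 on chromosome 5 (145114215 to 145130705 and 122391878 to 122414184) and Lcp1 on chromosome 14 (75131101 to 75230842). SmartSeq2 does not mark the strand, and 3 members overlap a protein-coding gene on the other strand that the table also holds. These neighbours were low in neutrophils, at a mean of 1.06 TPM for Snx32 beside Cfl1, 8.40 TPM for Bola2 beside Coro1a and 6.30 TPM for Pdap1 beside Arpc1b.

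Among the members matched to RefSeq promoters (GRCm38.p6, 250 bases before to 50 after the start), Actg1 alone held a CArG box, the motif bound by serum response factor, a regulator of many cytoskeletal genes. Actb was not among the 9 members matched. The stretch, shown as the single match among them, runs from 250 to 51 bases before the start, chr11:120348546-120348745 on the minus strand, with the CArG box (90 to 81 bases before the start) in capitals.
Actg1 promoter: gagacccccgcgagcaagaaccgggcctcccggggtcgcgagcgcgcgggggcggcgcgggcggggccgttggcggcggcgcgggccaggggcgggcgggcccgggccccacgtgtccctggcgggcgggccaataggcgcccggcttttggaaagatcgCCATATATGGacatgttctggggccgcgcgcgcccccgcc
Searched on both strands, the CArG box was present in 535 of 32851 promoters (1.629%) and in 1 of the 11 promoters of the 9 members matched. The GC box GGGCGG was present in 10 of these 11 promoters, at least 1 for each of the 9 members, and in 35.66% of all promoters. It did not overlap the CArG box in Actg1. These are matches of letters, no binding was measured, and whether the box bears on the level of Actg1 was not tested.

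Actb was the most abundant member in neutrophils by a wide margin. It averaged 17463 TPM in replicate 1 and 18285 TPM in replicate 2 (17874 ± 581 TPM, mean ± SD, n = 2), and was above 0 in all 286 neutrophils. Actg1 averaged 6887 and 7195 TPM and Tmsb4x 6985 and 5924 TPM. Their order was not resolved, since the ranges of the 4 plate means overlapped (6820 to 7575 TPM for Actg1, 5766 to 7138 TPM for Tmsb4x).

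Below them came the second monomer binder and the turnover and bundling proteins. Pfn1 averaged 4037 and 3858 TPM, Coro1a 3454 and 3333 TPM, and Lcp1 2442 and 2714 TPM in the 2 replicates. Arpc1b, at 2243 and 2169 TPM, could not be separated from Lcp1 by plate. Cfl1 averaged 1515 and 1471 TPM, Arpc2 1175 and 1264 TPM and Arpc3 398 and 333 TPM. All other neighbours in this order had plate ranges that did not overlap. The 3 Arp2/3 subunits, which sit in the complex in equal number, were thus listed at unequal transcript levels, with Arpc1b at 2206 ± 52.5 TPM and Arpc3 at 365 ± 45.5 TPM (mean ± SD, n = 2).

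**Figure D1:**
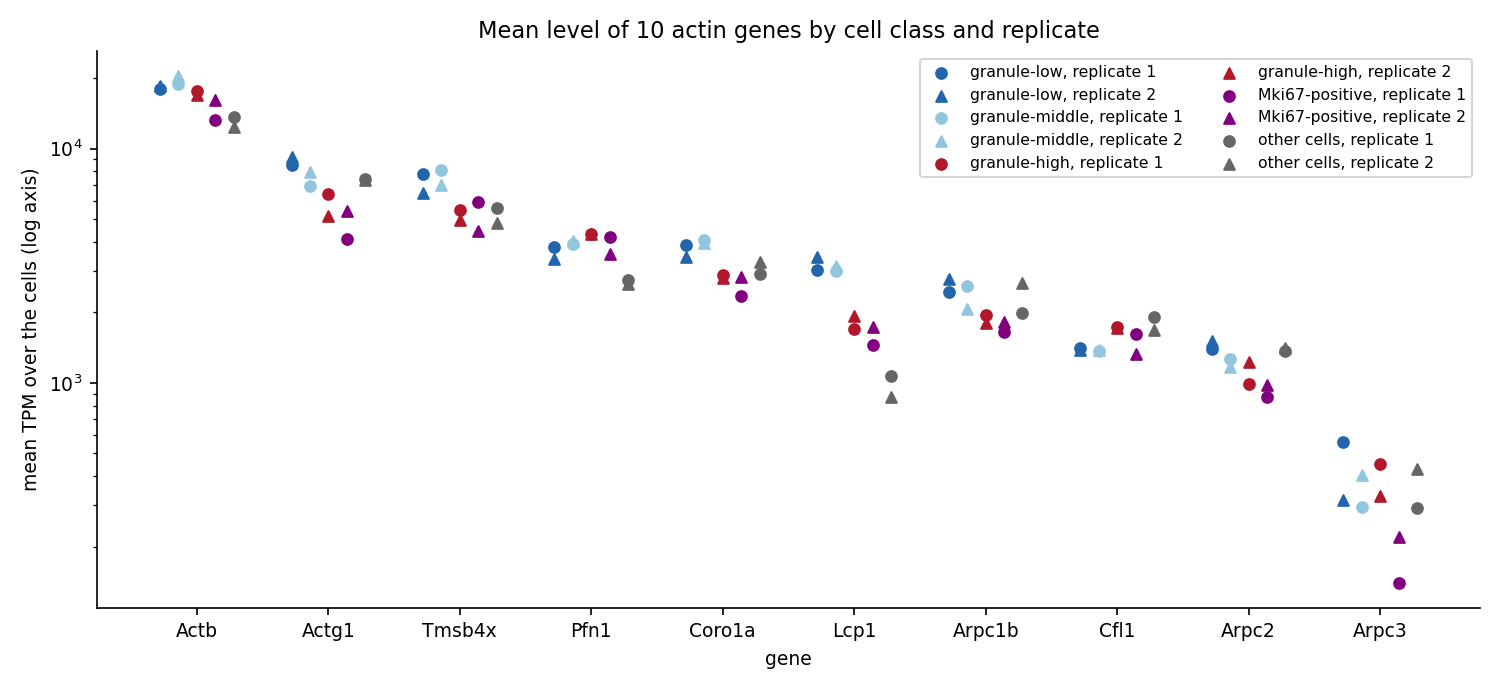
Mean TPM (log axis) of the 10 genes in each cell class, ordered by their level in all neutrophils, with 1 circle for replicate 1 and 1 triangle for replicate 2. Actb lies above all others in every class, and Lcp1 is lowest in the other cells, at 1066 and 872 TPM.

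Detection in single neutrophils followed the level for most members. Actg1 and Tmsb4x were above 0 in 99.7% and 99.3% of neutrophils, and Pfn1, Lcp1 and Arpc1b each in 98.6%. Coro1a (98.3%), Cfl1 (97.9%) and Arpc2 (94.1%, exact binomial 95% interval 90.7% to 96.5%) were close to them. Arpc3 was above 0 in only 61.5% of neutrophils (55.6% to 67.2%) and listed at 0 in the rest. Between cells Actb was the steadiest, with a coefficient of variation of 0.252, against 0.427 for Pfn1, 0.644 for Lcp1 and 1.26 for Arpc3. At low depth a transcript can be missed and listed at 0, so Arpc3 is given mainly as averages.

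The granule genes give an order among the neutrophils, because granule proteins are transcribed while neutrophils form in bone marrow and fade as the cells age. Neutrophils with Mki67 at 0 were ranked within each plate by 7 granule genes (Ltf, Camp, Ngp, Lcn2, Cd177, Chi3l3 and Hp) and divided into classes of equal size, granule-low (85 cells), granule-middle (83) and granule-high (81). Together the 10 members took 5.07% and 5.03% of TPM in granule-low cells of replicates 1 and 2, 5.04% and 5.15% in granule-middle cells, and 4.34% and 4.12% in granule-high cells. The granule-high values lay below the others in both replicates.

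A share of RNA falls when a few abundant transcripts take more of the total, and the granule genes did. The 7 granule genes, S100a8, S100a9 and the ribosomal precursor Rn45s took 14.3% of TPM in granule-low, 25.4% in granule-middle and 39.4% in granule-high cells. Values were therefore also computed after leaving these 10 genes out and scaling each cell to the same total again, called rescaled TPM. On that scale the order turned, and the members summed to 5.97% and 5.88% in granule-low, 6.81% and 7.00% in granule-middle and 7.18% and 6.83% in granule-high cells. The classes also differed in genes detected per cell, with medians of 1371, 1540 and 1994, whose part in the results below was not tested.

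In TPM, granule-high cells had lower Lcp1, Actg1, Tmsb4x and Arpc1b than granule-low cells, and none of the 10 members was higher. Each class was averaged in each replicate and the averages compared by limma, with replicate as a block. P-values were adjusted over all genes tested by the Benjamini-Hochberg method. Of 3888 genes, 427 were lower (11.0%) and 176 higher (4.53%), and the median log2 fold of all genes was -0.36. Against that background 4 of 10 members were lower and 0 higher, with a median log2 fold of -0.37, close to the median of all genes. The member folds ran from -0.84 to 0.30.

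Of the actins, Actg1 fell with rising granule level and Actb did not pass. Actg1 averaged 8526 and 9176 TPM in granule-low cells of the 2 replicates, 6934 and 7975 TPM in granule-middle cells, and 6382 and 5133 TPM in granule-high cells. The granule-low and granule-high replicates did not overlap, and the log2 fold was -0.63 (limma, SE 0.11, adjusted p = 0.010) and negative in 4 of 4 plates. Actb averaged 17890 and 18416 TPM in granule-low against 17544 and 16998 TPM in granule-high cells, a log2 fold of -0.07 (limma, SE 0.05, adjusted p = 0.41).

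The monomer binders went opposite ways, though only one passed. Tmsb4x averaged 7800 and 6456 TPM in granule-low against 5488 and 4946 TPM in granule-high cells, a log2 fold of -0.45 that passed (limma, SE 0.08, adjusted p = 0.011). The classes did not overlap. Pfn1 averaged 3815 and 3381 TPM in granule-low against 4323 and 4321 TPM in granule-high cells, a log2 fold of 0.27 that did not pass (limma, SE 0.10, adjusted p = 0.12).

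The turnover proteins did not pass on this scale. Cfl1 averaged 1410 and 1388 TPM in granule-low against 1734 and 1718 TPM in granule-high cells (log2 fold 0.30, limma, adjusted p = 0.18). Its direction was the same in 4 of 4 plates. Coro1a averaged 3864 and 3431 TPM against 2885 and 2814 TPM (log2 fold -0.35, limma, adjusted p = 0.060). It passed in 4 of the alternatives.

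Of the Arp2/3 subunits, Arpc1b passed narrowly. It averaged 2438 and 2772 TPM in granule-low against 1949 and 1795 TPM in granule-high cells, a log2 fold of -0.47 (limma, SE 0.13, adjusted p = 0.049), and lost the call in 9 alternatives that left its direction the same. Arpc2 had a log2 fold of -0.40 without passing (limma, adjusted p = 0.12). Arpc3 averaged 560 and 318 TPM against 450 and 330 TPM, classes that overlapped, yet was above 0 in 54.1% of granule-low and 80.2% of granule-high cells. Detection and mean level thus disagreed for Arpc3, and the classes differ in genes detected, as given above.

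Lcp1 showed the largest fall of the members in TPM. It averaged 3026 and 3460 TPM in granule-low, 3014 and 3160 TPM in granule-middle, and 1693 and 1923 TPM in granule-high cells. The step lay between the middle and the high class, and the high class did not overlap either of the others. The log2 fold of granule-high against granule-low was -0.84 (limma, SE 0.11, adjusted p = 0.0033), with -1.10 to -0.51 over the 4 plates. With averages of log values in place of averages of TPM, Lcp1 did not pass (adjusted p = 0.064), Actg1 alone of the members fell, and Cfl1 (1.08, limma, adjusted p = 0.012) and Arpc3 (1.68, adjusted p = 0.012) rose.

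In rescaled TPM the picture was different. Of 3989 genes, 179 were higher (4.49%) and 181 lower (4.54%) with a median log2 fold of 0.14, and 3 members rose while 0 fell. Cfl1 rose by 0.81 (limma, adjusted p = 0.022), Pfn1 by 0.79 (adjusted p = 0.014) and Actb by 0.43 (adjusted p = 0.014). Lcp1 and Actg1 kept negative log2 folds of -0.39 and -0.16 without passing (limma, adjusted p = 0.088 and 0.43), and Tmsb4x, Coro1a, Arpc1b, Arpc2 and Arpc3 turned positive without passing. For Actg1 the replicates differed in sign, at 0.043 in replicate 1 and -0.36 in replicate 2. The replicates of Tmsb4x, Arpc1b and Arpc2 differed in sign too. The calls therefore depend on whether granule transcripts count in the total. On both scales Lcp1 and Actg1 had the lowest folds and Cfl1 and Pfn1 the highest, but the scales differ by a shift that was similar for all members, so the second is no separate support for that order.

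**Figure D2:**
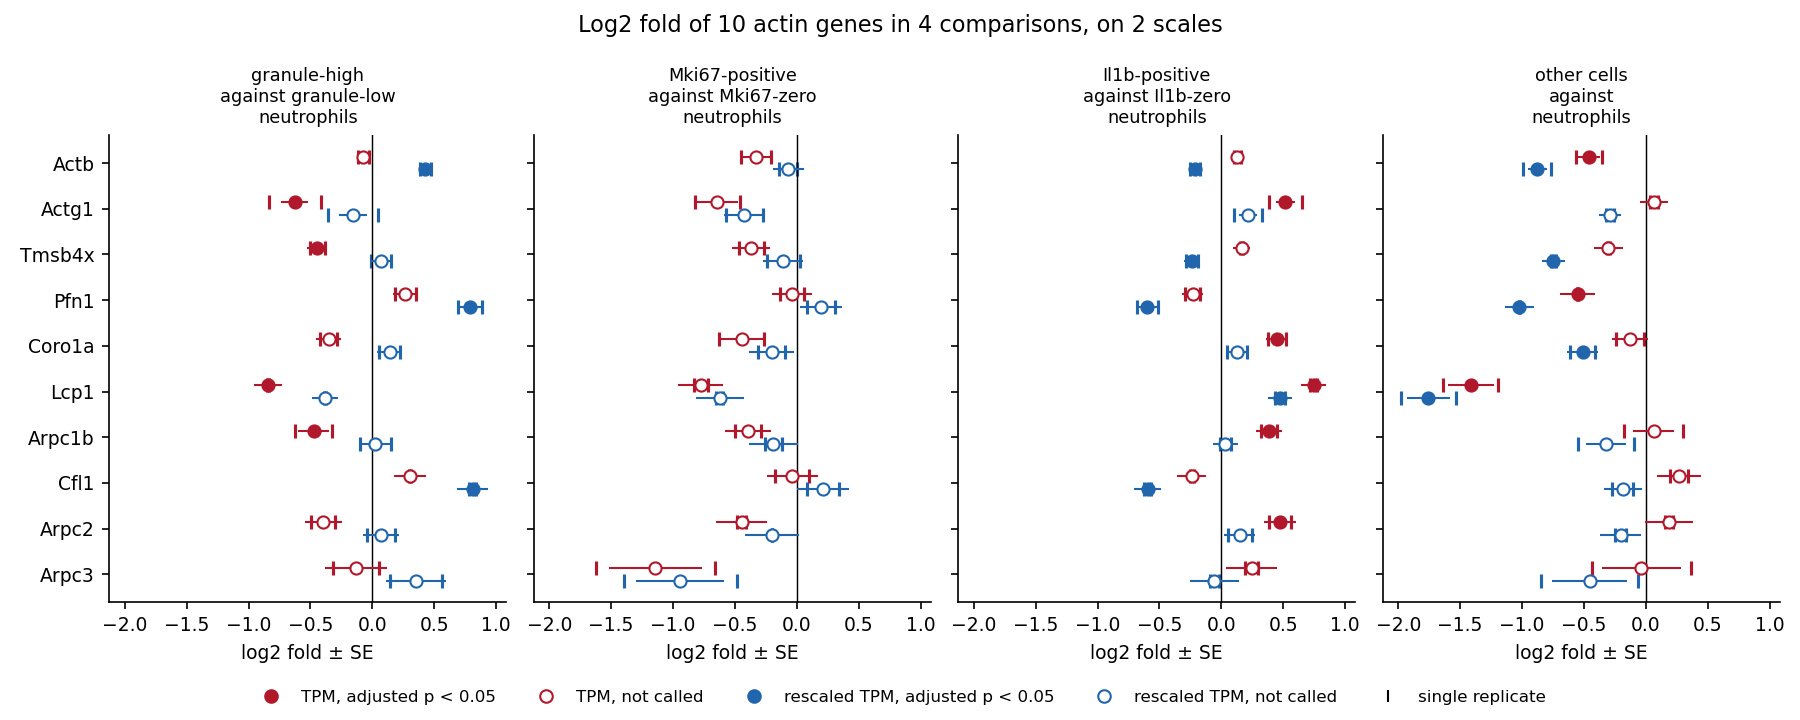
Log2 fold (x axis, error bar SE) of each member in the 4 comparisons in TPM (red) and in rescaled TPM (blue), with ticks for single replicates and filled circles for calls. Lcp1 and Actg1 lie to the left of Cfl1 and Pfn1 on both scales in the granule comparison, and the 2 scales differ by a shift.

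Ratios between members are largely free of that scaling by construction. It leaves the ratio of members within a cell unchanged, and ratios of class means change only through the weight of each cell. The ratio of mean TPM of Actg1 to that of Actb was 0.477 and 0.498 in granule-low, 0.368 and 0.391 in granule-middle, and 0.364 and 0.302 in granule-high cells of the 2 replicates. The granule-low plates (0.423 to 0.532) lay above the granule-high plates (0.292 to 0.400). The ratio of Lcp1 to Actb was 0.169 and 0.188 in granule-low, 0.160 and 0.155 in granule-middle and 0.0965 and 0.113 in granule-high cells, again without overlap between the plates of the low and high classes.

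The ratios of Cfl1 and Pfn1 to Actb ran the other way. Cfl1 stood at 0.0788 and 0.0753 of Actb in granule-low and at 0.0988 and 0.101 in granule-high cells. Pfn1 stood at 0.213 and 0.184 in granule-low and at 0.246 and 0.254 in granule-high cells, and plate ranges did not overlap for either gene. In rescaled TPM the ratio to Actb went from 0.473 and 0.494 in granule-low to 0.351 and 0.296 in granule-high cells for Actg1, and from 0.169 and 0.188 to 0.0938 and 0.110 for Lcp1. The plate ranges of the low and high classes did not overlap on that scale either, for Actg1, Lcp1, Cfl1 or Pfn1. This is no separate support, since the scaling leaves the ratio within a cell unchanged. With 2 replicates a side an exact permutation test cannot give a two-sided p below 0.333, so these ratios are given as values.

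**Figure D3:**
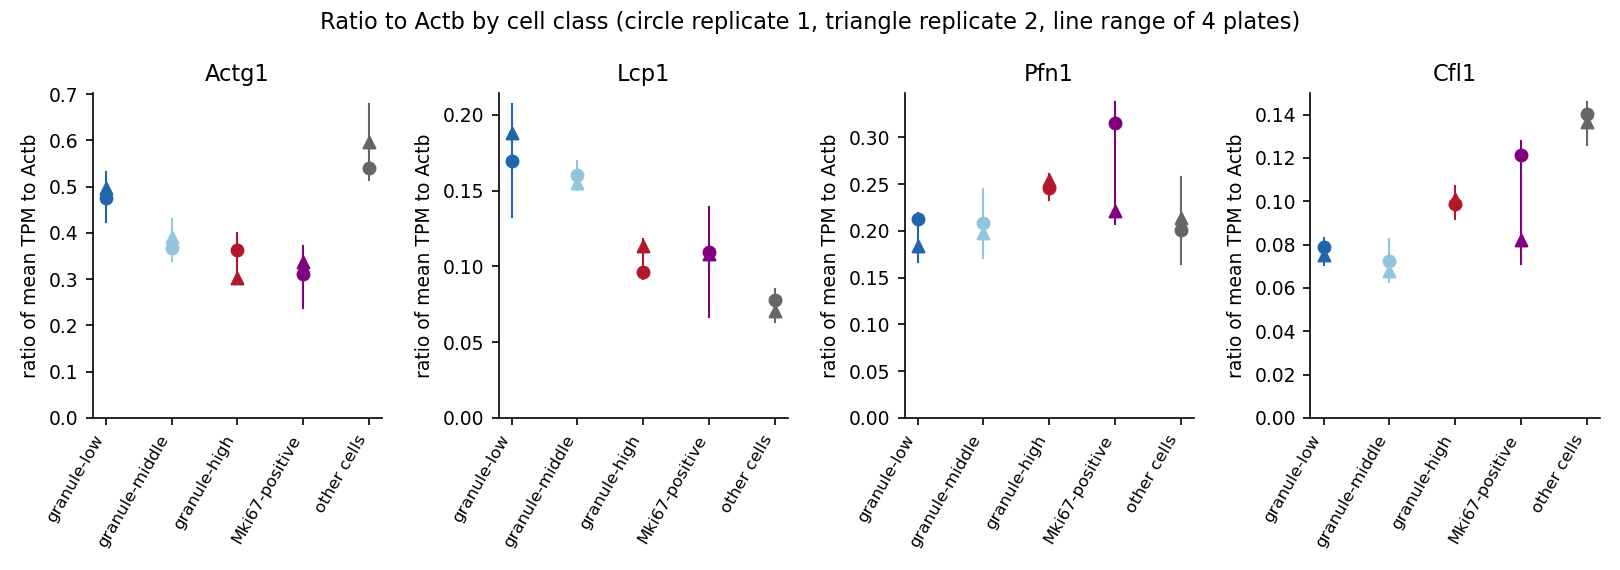
Ratio of the mean TPM of Actg1, Lcp1, Pfn1 and Cfl1 to that of Actb (y axis, from 0) in 5 cell classes, with a circle for replicate 1, a triangle for replicate 2 and a line for the range of the 4 plates. From granule-low to granule-high the ratio fell from 0.487 to 0.333 for Actg1 and from 0.179 to 0.105 for Lcp1 (means of 2 replicates).

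Single cells showed the same order within plates. The Spearman correlation with granule level over the neutrophils of a plate ran from -0.54 to -0.33 for Actg1 and from -0.49 to -0.34 for Lcp1, and from 0.11 to 0.31 for Cfl1 and 0.07 to 0.41 for Pfn1. These are descriptions over cells that share a plate and a fixed total. Genes detected per cell also went with some members, from -0.45 to -0.13 for Lcp1 and from 0.15 to 0.24 for Cfl1.

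The members did not vary together as a block from cell to cell. Of the 45 pairs, 20 had a positive Spearman correlation in all 4 plates, and the median was 0.10. The closest pair was Actg1 with Lcp1, at a mean of 0.49 over the plates (0.45 to 0.52), ahead of Coro1a with Lcp1 (0.29). The pairs Actg1 with Pfn1 (-0.24) and Pfn1 with Lcp1 (-0.24) were the lowest. Actb and Actg1, whose coding sequences are so alike, had a mean correlation of 0.22.

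**Figure D4:**
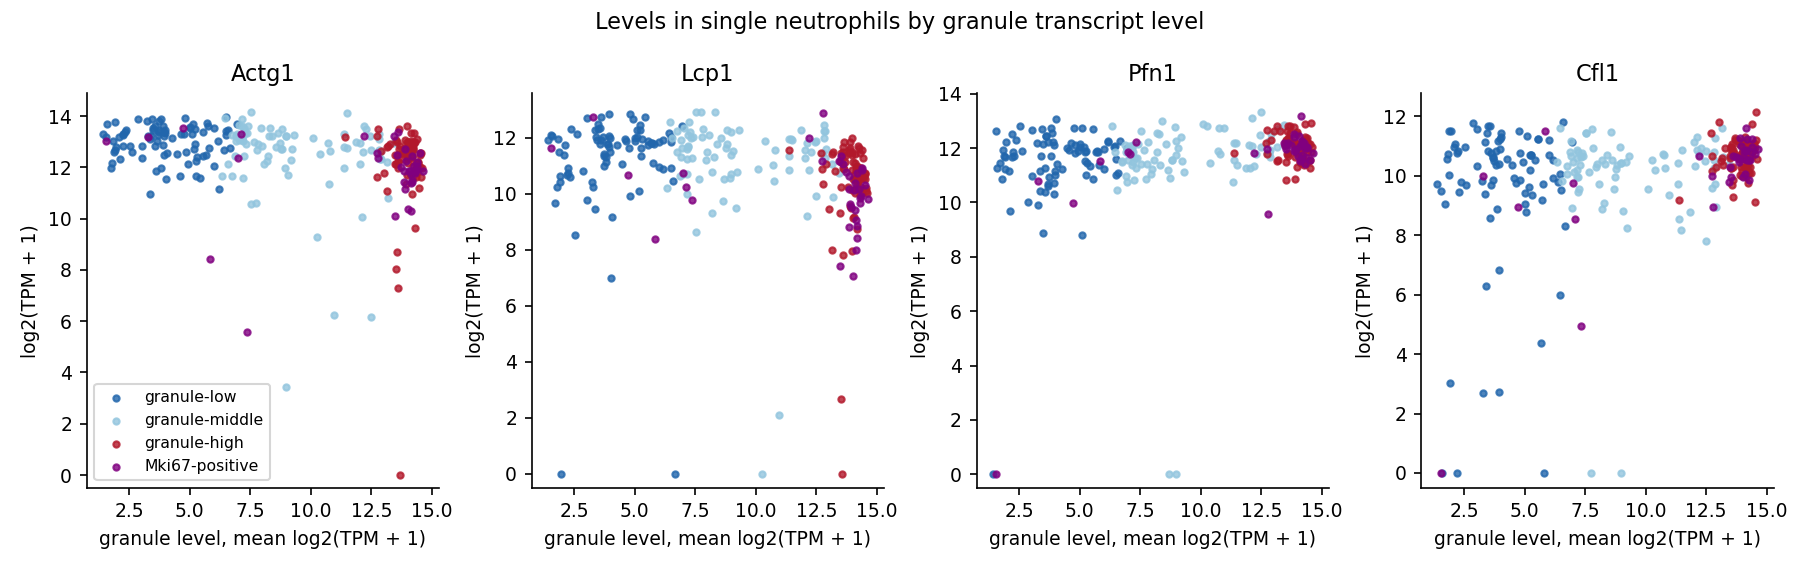
Level of Actg1, Lcp1, Pfn1 and Cfl1 in single neutrophils, as log2(TPM + 1), against the granule level of the cell (mean log2(TPM + 1) of 7 genes), coloured by class. Points at 0 are cells in which the gene is listed at 0. The Spearman correlation over the cells of a plate lay between -0.54 and -0.33 for Actg1 and between 0.07 and 0.41 for Pfn1.

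The genes outside the set whose level was most like the mean of the 10 members were Cnn2 (calponin 2, an actin-binding protein; mean Spearman correlation over the plates 0.36), Mmp9 (a gelatinase; 0.33), Rac2 (a small GTPase of blood cells; 0.33), Itm2b (0.33), Gm5177 (0.33), Gapdh (a glycolytic enzyme; 0.32), Mmp8 (the neutrophil collagenase; 0.32) and Alox5 (the lipoxygenase that starts leukotriene synthesis; 0.28). They were taken from 834 genes above 0 in at least 50% of the 286 neutrophils, whose median correlation was 0.07. Members with a wide spread weigh most in that mean. The SD of log2(TPM + 1) over neutrophils was 4.41 for Arpc3, often listed at 0, against 0.418 for Actb. How far the detection of Arpc3 set this ranking was not tested.

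Some other genes of the actin pathway had larger folds between granule classes than any member. Of 75 listed genes in the table, 63 were tested. In TPM 5 were higher and 5 lower with a median log2 fold of -0.21, beside 4.53% higher and 11.0% lower over all genes. In rescaled TPM 9 were higher and 2 lower, beside 4.49% higher and 4.54% lower over all genes. Dstn (destrin, a close relative of cofilin that severs filaments) averaged 224 and 155 TPM in granule-low, 717 and 899 TPM in granule-middle, and 1677 and 1835 TPM in granule-high cells. Its log2 fold was 3.23 (limma, SE 0.24, adjusted p = 0.00034) and was above 0 in 27.1% of granule-low and 100% of granule-high cells.

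The other 4 listed genes that rose have different roles. Arhgdib, which holds small GTPases inactive, rose by 1.13 in TPM (limma, adjusted p = 0.00063), from 2534 and 2299 TPM to 5334 and 5224 TPM. Capg, which caps filament ends, rose by 1.75 (adjusted p = 0.0027) and the myosin light chain Myl6 by 0.74 (adjusted p = 0.014). Vcl (vinculin, an adhesion protein) also rose (log2 fold 4.28, limma, adjusted p = 0.017) from a low level of 0.352 and 10.2 TPM to 54.8 and 102 TPM. These 5 genes were also called higher in rescaled TPM.

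The 5 listed genes that fell were Tpm4, Zyx, Ssh2, Myl12b and Acta2. Tpm4 (a tropomyosin, which lines filaments) fell by 2.41 in TPM (limma, adjusted p = 0.0010), from 901 and 943 TPM in granule-low to 178 and 166 TPM in granule-high cells. Zyx (zyxin, found at adhesion sites) fell by 1.42 (adjusted p = 0.0060), Ssh2 (a phosphatase that activates cofilin) by 2.22 (adjusted p = 0.027) and Myl12b by 0.63 (adjusted p = 0.019). Acta2, the smooth muscle actin, fell by 3.16 (limma, adjusted p = 0.0081), from 148 and 225 TPM to 18.3 and 20.8 TPM. In rescaled TPM the calls of Tpm4 and Acta2 held and those of Zyx, Ssh2 and Myl12b did not. Acta2 is also on the list of endothelial and mural markers, of which 2 of 5 were above 0 in any neutrophil. The other one, Pecam1, was above 0 in 2 of 85 granule-low and 2 of 81 granule-high cells, at 14.03 and 3.98 TPM in granule-low and 0.0781 and 0.530 TPM in granule-high cells of the 2 replicates. The summed list went from 163 and 229 TPM to 18.4 and 21.3 TPM. That sum holds Acta2 itself and was nearly all Acta2, so its direction is no separate observation. Cldn5, Cdh5 and Rgs5 were listed at 0 in every neutrophil. The part of endothelial or mural RNA in the result was not tested.

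**Figure D5:**
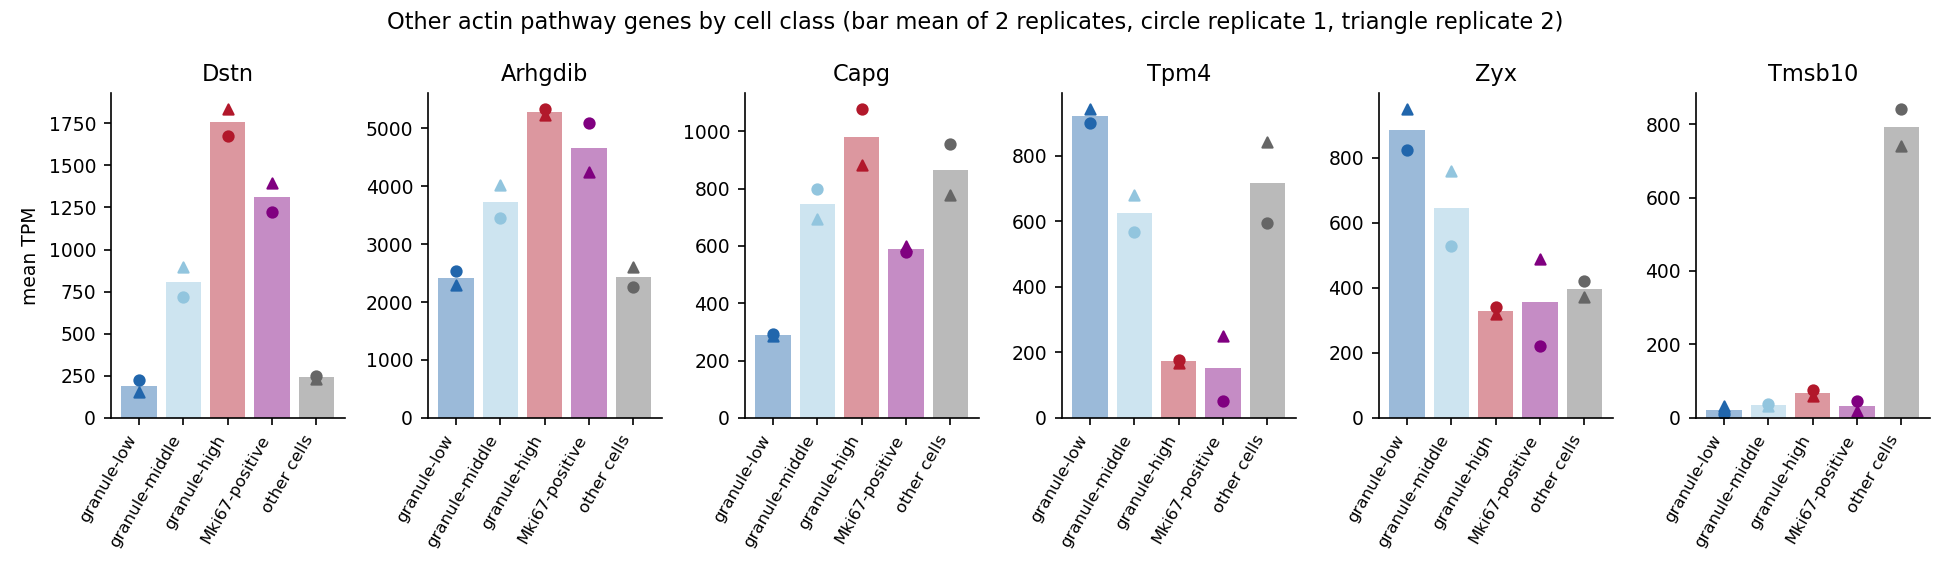
Mean TPM (y axes from 0, each with its own scale) of 6 other actin pathway genes in 5 cell classes, with bars for the mean of 2 replicates, circles for replicate 1 and triangles for replicate 2. Dstn rises from 189 to 1756 TPM from granule-low to granule-high cells, Tpm4 falls across the same classes, and Tmsb10 is high in the other cells alone, at 791 TPM.

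Neutrophils with Il1b, the precursor of interleukin-1 beta, had higher Lcp1, Actg1, Arpc2, Coro1a and Arpc1b in TPM than those with Il1b at 0. The classes held 169 and 117 cells. Of 4042 genes tested by limma, 489 were higher (12.1%) and 160 lower (3.96%) with a median log2 fold of 0.22, and 5 of 10 members were higher and 0 lower. In rescaled TPM 301 of 4136 genes were higher (7.28%) and 336 lower (8.12%) with a median of -0.10, and 1 member was higher and 4 lower. In cells of 1200 to 2500 genes Lcp1 was the 1 member called in TPM.

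Lcp1 was the member called higher on both scales. It averaged 2946 and 3229 TPM in Il1b-positive against 1723 and 1963 TPM in Il1b-zero cells, and the classes did not overlap. It rose by 0.75 in TPM (limma, SE 0.10, adjusted p = 3.1e-05) and by 0.47 in rescaled TPM (adjusted p = 0.0040). Actg1 averaged 7624 and 8438 TPM against 5837 and 5380 TPM and rose by 0.52 in TPM (limma, adjusted p = 0.00016), but not in rescaled TPM (0.21, adjusted p = 0.066).

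Coro1a averaged 3950 and 3673 TPM in Il1b-positive against 2745 and 2836 TPM in Il1b-zero cells, and rose by 0.45 in TPM (limma, adjusted p = 0.0019). Arpc2 rose by 0.47 (adjusted p = 0.018) and Arpc1b by 0.39 (adjusted p = 0.017) in TPM. None of these 3 genes passed in rescaled TPM, where Cfl1 (-0.60, adjusted p = 0.0022), Pfn1 (-0.60, adjusted p = 0.00013), Tmsb4x (-0.24, adjusted p = 0.028) and Actb (-0.21, adjusted p = 0.0085) were lower. For Tmsb4x and Actb that direction is opposite to the one in TPM (0.16 and 0.13), where neither passed.

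The split by Il1b overlapped with the split by granule level. Il1b was above 0 in 95.3% of granule-low, 68.7% of granule-middle and 25.9% of granule-high cells, and the mean granule level was 7.18 in Il1b-positive and 12.7 in Il1b-zero cells. With each granule class given equal weight, 0 members were called and the Lcp1 fold was 0.22 (limma, adjusted p = 0.83, while 17 genes were higher and 341 had an unadjusted p under 0.05). That fit rests on 1 and 3 granule-low cells with Il1b at 0 in the 2 replicates.

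The granule-middle class holds both kinds of cell in number, 25 and 32 with Il1b and 13 and 13 without, with median genes per cell between 1507 and 1566. The granule level still differed within the class, at 8.41 and 9.67 with Il1b and 9.62 and 10.4 without. The replicates did not overlap for Actg1, Coro1a, Arpc2 and Lcp1, which were higher with Il1b, or for Tmsb4x, Pfn1 and Arpc3, which were lower. The share of all genes without overlap was not counted. With 2 values a side an exact permutation test cannot give a two-sided p below 0.333, so these are descriptions. Coro1a averaged 4722 and 4353 TPM with Il1b and 2850 and 3000 TPM without, and Lcp1 3220 and 3524 TPM with and 2618 and 2263 TPM without. Pfn1 was on the other side, at 3436 and 3749 TPM with Il1b and 4857 and 4711 TPM without. Tmsb4x (7371 and 6675 TPM with, 9435 and 7794 TPM without) and Arpc3 (237 and 355 TPM with, 406 and 519 TPM without) ran against the sign of their folds over all neutrophils in TPM (0.16 and 0.24).

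In the granule-high class the replicates did not overlap for Lcp1 (2103 and 2133 TPM with Il1b, 1562 and 1844 TPM without), Arpc2 and Arpc3. All were higher with Il1b, again without a count over all genes. Coro1a overlapped there, at 2904 and 2762 TPM with Il1b and 2880 and 2833 TPM without. Pfn1 overlapped too, at 4116 and 4769 TPM with and 4390 and 4152 TPM without, and so did Actg1 and Tmsb4x. The difference between the classes was not tested.

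Of the actin pathway list, 9 of 63 tested genes rose and 2 fell with Il1b in TPM, and 2 rose and 7 fell in rescaled TPM. Over all genes 12.1% rose and 3.96% fell in TPM, and 7.28% rose and 8.12% fell in rescaled TPM. Tpm4 rose by 1.51 (limma, adjusted p = 4.6e-05), Zyx by 1.01 (adjusted p = 0.00047) and Ssh2 by 1.53 (adjusted p = 0.020) in TPM. Hcls1 (0.84), an activator of Arp2/3, Arpc1a (0.91), the sister subunit of Arpc1b, and Iqgap1 (0.86), a scaffold protein, rose too. Dstn fell by 1.14 (limma, adjusted p = 1.1e-05) and Arhgdib by 0.55 (adjusted p = 0.00012). Tpm4, Zyx, Dstn and Arhgdib kept their calls in rescaled TPM.

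Neutrophils with Mki67, a marker of dividing cells, numbered 17 in replicate 1 and 20 in replicate 2. They showed no called difference in any member. In TPM 0 of 4042 genes passed in either direction (0.0%; limma, 632 with an unadjusted p under 0.05, smallest adjusted p 0.13). The member folds were all negative, from -1.14 to -0.04, around a median of all genes of -0.26. In rescaled TPM 19 of 4136 genes passed (0.459%), none of them members.

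Lcp1 averaged 1452 and 1737 TPM in Mki67-positive against 2590 and 2859 TPM in Mki67-zero neutrophils (log2 fold -0.78, limma, adjusted p = 0.22). Actg1 averaged 4125 and 5422 TPM against 7299 and 7458 TPM (log2 fold -0.64, adjusted p = 0.23), and Arpc3 141 and 221 TPM against 436 and 350 TPM (log2 fold -1.14, adjusted p = 0.27). The replicates of the 2 classes did not overlap for these 3 genes, nor for Actb, Tmsb4x, Coro1a, Arpc1b and Arpc2. How many of all genes were without overlap was not counted. Mki67-positive cells were also richer in granule transcripts (mean granule level 12.3 against 9.04) and in genes detected (median 2349 against 1551). Against granule-high cells alone the folds were smaller for Lcp1 (-0.18, adjusted p = 0.83) and Actg1 (-0.28, adjusted p = 0.71), and similar for Arpc3 (-1.12, adjusted p = 0.34).

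A stricter definition of dividing cells changed the count. With at least 5 of 16 proliferation genes above 0 (13 and 11 cells), 6 members were lower: Actg1 (-0.94, limma, adjusted p = 3.5e-05), Lcp1 (-1.07, adjusted p = 0.00075), Actb (-0.37, adjusted p = 0.019), Arpc1b (-0.67, adjusted p = 0.040), Arpc2 (-0.89, adjusted p = 0.041) and Arpc3 (-1.21, adjusted p = 0.042). In that fit 172 of 4042 genes were higher and 470 lower over all. The median log2 fold of all genes was -0.37, so the Actb fold was no lower than that of a typical gene. Of the actin pathway list, 0 of 63 genes tested passed by Mki67 in TPM or in rescaled TPM (limma), beside 0.0% and 0.459% of all genes.

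The other cells, mostly with monocyte markers, had lower Lcp1, Pfn1 and Actb than neutrophils. Of 4575 genes tested, 749 were higher (16.4%) and 401 lower (8.77%) with a median log2 fold of 0.23, and 0 members were higher and 3 lower. In rescaled TPM 412 of 4685 genes were higher (8.79%) and 480 lower (10.2%), with a median of -0.14, and 5 members were lower. The 10 members summed to 3.90% and 3.75% of TPM in the other cells against 4.66% and 4.65% in neutrophils. Beside these results, genes detected per cell had a median of 3027.5 in the other cells and 1604.5 in neutrophils. The other cells were also mixed. Mki67 was above 0 in 43.5% and 17.6% of them in the 2 replicates, against 12.9% of all neutrophils. At least 3 of 16 proliferation genes were above 0 in 23 of the 40, against 61 of 286 neutrophils. At least 3 markers of B cells, of T or natural killer cells and of precursor granules were above 0 in 2, 3 and 2 of the 40. The part of dividing cells or of these cell types in the folds was not tested.

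Lcp1 differed most. It averaged 1066 and 872 TPM in the other cells against 2442 and 2714 TPM in neutrophils, and no plate overlapped. The log2 fold was -1.42 in TPM (limma, SE 0.19, adjusted p = 3.0e-06) and -1.76 in rescaled TPM (adjusted p = 0.00061), and the ratio to Actb was 0.0779 and 0.0707 against 0.140 and 0.148. With cells of 1200 to 2500 genes alone, which left 6 and 7 other cells, the fold was -0.90 and no longer passed (adjusted p = 0.35).

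Pfn1 and Actb were also lower on both scales. Pfn1 averaged 2748 and 2640 TPM in the other cells against 4037 and 3858 TPM in neutrophils (log2 fold -0.55, limma, adjusted p = 0.0048). Actb averaged 13682 and 12334 TPM against 17463 and 18285 TPM (log2 fold -0.46, limma, adjusted p = 0.00038). Neither pair of groups overlapped. In rescaled TPM the folds were -1.02 for Pfn1 and -0.88 for Actb, and Tmsb4x (-0.75, limma, adjusted p = 0.0018) and Coro1a (-0.51, adjusted p = 0.027) passed as well. With cells of 1200 to 2500 genes Actb (-0.48, adjusted p = 0.30) and Pfn1 (-0.19, adjusted p = 0.67) lost their calls.

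Actg1 was close to the neutrophil level in TPM, at 7382 and 7350 TPM against 6887 and 7195 TPM (log2 fold 0.07, limma, SE 0.11, adjusted p = 0.71). Its ratio to Actb was accordingly higher in the other cells, 0.540 and 0.596 against 0.394 and 0.394. The ratio of Cfl1 to Actb was also higher, 0.140 and 0.136 against 0.0868 and 0.0804, without overlap between plates for either gene. The Arp2/3 subunits did not pass on either scale. Arpc1b averaged 1987 and 2668 TPM in the other cells, Arpc2 1367 and 1406 TPM and Arpc3 293 and 429 TPM.

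Of 64 actin pathway genes tested in the other cells against neutrophils, 6 were higher and 12 lower in TPM, and 3 higher and 16 lower in rescaled TPM. Over all genes 16.4% were higher and 8.77% lower in TPM, and 8.79% higher and 10.2% lower in rescaled TPM. Tmsb10 (thymosin beta-10, a relative of Tmsb4x) averaged 841 and 740 TPM in the other cells against 41.2 and 38.3 TPM in neutrophils, and rose by 4.28 (limma, SE 0.39, adjusted p = 7.1e-09). Arpc5l, an Arp2/3 subunit, rose by 2.91 (adjusted p = 8.7e-05) and Myo1g, a myosin of blood cells, by 2.31 (adjusted p = 9.1e-05). All 3 also passed in rescaled TPM. Coro1b (0.85), Capza2 (1.01) and Arhgdia (1.17) rose in TPM only.

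Among the listed genes lower in the other cells, Dstn averaged 250 and 232 TPM against 907 and 1008 TPM in neutrophils (log2 fold -1.98, limma, adjusted p = 7.9e-06). Vasp, which extends filaments, fell by 2.09 (adjusted p = 0.013) and Myh9, the heavy chain of non-muscle myosin, by 1.63 (adjusted p = 0.044). Actn1 (-3.40), Limk2 (-3.00) and Acta2 (-2.97) were lower from averages below 100 TPM in neutrophils, and Actn1 was listed at 0 in all other cells of replicate 2. These 6 genes were also called lower in rescaled TPM.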

How the data were processed

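The authors deposited TPM values for 23420 genes per cell, made with RSEM on mm10 per the submitters' processing notes. The version, read aligner and gene annotation were not given in the sources used here. Each cell sums to 1000000, so depth is unknown and a 0 can be a failed estimate. Cells were matched to their labels by name (0 columns unmatched), no 2 cells held identical values, and no doublet caller was run.

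TPM was averaged over the cells of each class in each replicate, and the 4 averages of a comparison, on the log2 scale after adding 1 to each mean, were compared by limma 3.58.1 in R 4.3.3 (trend and robust options), and p-values were adjusted by the Benjamini-Hochberg method with a threshold of 0.05. A gene was tested if its mean reached 5 TPM and at least 10% of cells had it above 0. The genes that define the classes were left out. Folds on this scale understate the change of low genes. Both classes of a comparison come from the same replicates and plates, so the replicate was a block. With 1 residual degree of freedom, the test depends on the variance that limma shares across genes. Tested on simulated data, it recovered the simulated folds but called more unchanged genes than the threshold implies, and missed most changed genes. Averages, ratios and correlations used Python 3.11.15, pandas 2.3.3, numpy 2.4.6 and scipy 1.17.1. Intervals are exact binomial and cover counting error only.

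The members and lists were chosen with earlier results of these data known. The text names the 10 members, up to 6 called genes of the actin pathway list in each direction, and the 8 genes most like the members' mean. Of 76 listed pathway genes, Diaph1 was not matched. Alternatives changed the pseudocount, filter, averaging, scaling, thresholds, cells and block.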

Additional observations from a re-analysis of the deposited data

How the results depend on the processing

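Leaving the granule genes, S100a8, S100a9 and Rn45s out of the total moved the median log2 fold of all genes in the granule comparison from -0.36 to 0.14 and the share of higher calls from 29.2% to 49.7%; the share went from 75.3% to 47.3% by Il1b and from 65.1% to 46.2% for the other cells. On that rescaled scale 360 genes were called by granule level (603 in TPM), 3 members higher and 0 lower, and 19 by Mki67. By Il1b 1 member was higher and 4 lower, and in the other cells 5 were lower. The log2 fold turned for Actb (0.43), Tmsb4x (0.070), Coro1a (0.14), Arpc1b (0.024), Arpc2 (0.068) and Arpc3 (0.35) by granule level, for Actb (-0.21), Tmsb4x (-0.24) and Arpc3 (-0.057) by Il1b, for Cfl1 (0.21) and Pfn1 (0.20) by Mki67, and for Actg1 (-0.29), Arpc1b (-0.32), Arpc2 (-0.20) and Cfl1 (-0.19) in the other cells. Averages of log values called 1555, 741, 1492 and 2082 genes by granule level, Mki67, Il1b and in the other cells, against 603, 0, 649 and 1150 with averages of TPM, with 78.3% higher in the granule comparison and 22.7% by Il1b. Members called higher and lower were 2 and 1 by granule level and 2 and 1 by Il1b, and 1 was lower in the other cells. The fold turned for Coro1a (0.20), Arpc2 (0.27) and Arpc3 (1.68) by granule level, and for Arpc3 by Il1b (-1.13) and in the other cells (0.68). With both changes, added after seeing the data, 1618, 794, 1651 and 2087 genes were called, with 3 members higher and 0 lower by granule level and 2 higher and 3 lower by Il1b. Folds turned for Actb (0.43), Tmsb4x (0.26), Coro1a (0.71), Arpc1b (0.15), Arpc2 (0.76) and Arpc3 (2.11) by granule level, for Actb (-0.19), Tmsb4x (-0.16), Coro1a (-0.035) and Arpc3 (-1.42) by Il1b, for Cfl1 (0.20), Pfn1 (0.084), Coro1a (0.078), Arpc1b (0.032) and Arpc2 (0.18) by Mki67, and for Actg1 (-0.12), Arpc1b (-0.31) and Arpc3 (0.42) in the other cells. Without the filter on low values limma called 10 genes by granule level (1402 at an unadjusted p under 0.05), 0 by Il1b (1194) and 0 in the other cells (2307), and 0 members in each. Cells of 1200 to 2500 genes, also added later, gave 233 genes higher and 521 lower of 3908 by granule level, with a median log2 fold of -0.31. They gave 217 genes by Il1b with 1 member higher, and 296 in the other cells with 0 members lower, where 7.09% of calls were higher. With a split by granule level into 2 classes 1 member was higher (Pfn1), and Arpc3 turned (0.19). By Mki67 21 genes were called against granule-high cells (added later), 642 with at least 5 of 16 proliferation genes (6 members lower; Cfl1 0.35 and Pfn1 0.00082 turned) and 15 with averages per plate (Cfl1 0.030). By Il1b, equal weight per granule class gave 17 genes and 0 members higher (Tmsb4x -0.099, Cfl1 0.12), and neutrophils from 20000 TPM 3 members higher. Against granule-low neutrophils the other cells had folds of -0.26 for Actg1, -0.18 for Arpc1b and -0.067 for Arpc2, and without cells rich in Rn45s (added later) Arpc3 had 0.0015 there and Cfl1 0.00075 by Mki67. Without the replicate block 623, 8, 533 and 855 genes were called by granule level, Mki67, Il1b and in the other cells, and the counts of members called were as with it. The replicate number comes from the label of each cell, and both classes of a comparison hold cells of the same replicates and plates. Leaving out a replicate leaves 1 value a class and no test; the Lcp1 fold then lay between -0.85 and -0.84 by granule level, 0.72 and 0.77 by Il1b, -0.83 and -0.72 by Mki67 and -1.64 and -1.20 in the other cells. The Lcp1 fold kept its direction in all 4 comparisons under every alternative run. The cause of these changes was not tested. Depth is unknown from TPM, so no limit of detection can be given for a gene listed at 0.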
